A study of Mus musculus with 4 samples.

Results

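Akkermansia was followed in the stool of mice before and after antibiotics, as the sole genus of the phylum Verrucomicrobiota in the deposited 16S rRNA gene composition table. The members are the rows whose phylum name begins with p__Verrucomicrobi. There were 2 such rows of 488, both of the family Akkermansiaceae, so the phylum made up 1 of 316 genera and the phylum total and the genus are the same value. The rows are Akkermansia muciniphila_D_776786 and Akkermansia sp001580195.

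The samples were stool of wild-type C57BL/6J mice aged 8 to 12 weeks, kept specific-pathogen-free on standard chow. Mice received vancomycin, neomycin, ampicillin, metronidazole or the mix of these 4 in phosphate-buffered saline (PBS), or PBS alone, by oral gavage or by injection into the peritoneum or a vein. Each dose brought 2.5 mg in 100 µl, and mice were dosed 2 times a day over 3 days and for the last time on day 4. Stool was taken at day 0, before treatment, and at day 4. The labels used here give no cages, and p-values treat each mouse as independent.

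Akkermansia is a Gram-negative anaerobe that lives in the mucus layer of the gut and feeds on mucin, the glycoprotein of mucus. Ampicillin is a beta-lactam and vancomycin a glycopeptide, and both act on cell wall synthesis. Vancomycin acts mainly on Gram-positive bacteria, since the outer membrane of Gram-negative cells keeps it out, and it is poorly absorbed from the gut. Neomycin is an aminoglycoside that acts on the ribosome, needs aerobic transport to enter cells and is likewise poorly absorbed. Metronidazole is active against anaerobes. All values are shares of the reads of a library, so a share can be higher because Akkermansia grew or because other bacteria declined, and these cannot be told apart.

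Libraries of 198 stool samples were analysed, 107 of day 0 and 91 of day 4. The number of reads behind each library was recovered from the step of its values, and ran from 2 to 41082 at day 0 (median 7289, with 24 libraries under 1000) and from 30 to 153407 at day 4 (median 23566, with 4 under 1000). Run SB1 held 12 day 4 libraries and run ok122 all others. At day 4 the libraries of intraperitoneal vancomycin replicates 1 and 5 were alike within sampling noise (chi-square test of recovered reads, p = 0.363), and so were those of intravenous ampicillin replicates 3 and 4 (p = 0.153). Each pair therefore entered as 1 sample, leaving 89 day 4 samples of 91 libraries. Each mouse was identified by the sample name shared by both days. Both days were sequenced in 90 mice, and 1 of the mix whose route differed between days was left out of analyses within mice, which left 89.

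Akkermansia muciniphila_D_776786 carried nearly all Akkermansia reads. It had reads in 38 of 107 day 0 libraries, with a highest share of 1.91%, and in 59 of 91 day 4 libraries, with a highest share of 41.7%. Akkermansia sp001580195 had reads in 1 library alone, the intravenous mix replicate 1 at day 4, where it took 16 of 27 Akkermansia reads (0.0281% of the library, with both species at 0.0473%). That library is of the mouse whose route was given as intraperitoneal at day 0. The second species had empty cells, read as 0, for the 12 libraries of run SB1. All further values are the sum of both rows.

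Akkermansia was a minor genus before treatment. At day 0 it averaged 0.101% ± 0.305 of reads (SD, n = 107 libraries), the median was 0, and 35.5% of libraries had reads. Among libraries with reads the median was 0.0941%, and 3 libraries held at least 1%: intraperitoneal vancomycin replicate 4 at 1.91%, 1 of intravenous metronidazole at 1.71% and 1 of intravenous ampicillin at 1.22%. The metronidazole value rested on 6 of 351 reads. The genus was thus found in a minority of mice, and mostly near the limit of what could be counted.

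Detection moved with depth. Of day 0 libraries under 5000 reads, 10 of 45 (22.2%) had Akkermansia reads, against 28 of 62 (45.2%) from 5000 reads on. At day 4 the shares were 2 of 8 (25%) and 57 of 83 (68.7%). When libraries were thinned to 1000 reads each and shallower ones left out, 18 of 83 (21.7%) had reads at day 0 and 27 of 85 (31.8%) at day 4, compared with 35.5% and 64.8% in libraries of full depth. A library at 0 therefore carries an upper limit, taken as 3 reads of its total, which covers counting error only.

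No group was shown to differ from PBS at day 0. For each antibiotic and route, the mean of log2(percent + 0.01) was compared with that of PBS of the same route by a two-sided exact permutation test, adjusted by Benjamini-Hochberg over 15 comparisons. Of these, 0 passed an adjusted p of 0.05 and 0 had an unadjusted p under 0.05. The highest difference was that of intravenous ampicillin, at 2.63 (exact p = 0.119, adjusted p = 0.765), where 4 of 6 mice had reads and the mean was 0.497% ± 0.550 (SD, n = 6), against 0.0186% ± 0.0266 (SD, n = 6) in intravenous PBS. The lowest was that of intraperitoneal metronidazole, at -1.11 (exact p = 0.338, adjusted p = 0.765). Oral ampicillin was the group with no Akkermansia reads in any of its 6 day 0 libraries, which held 242 to 18757 reads. In intravenous ampicillin, replicates 3 and 4, the pair merged at day 4, held 0.767% and 0.954% at day 0. Of the day 0 pairs compared theirs was the closest (chi-square test of recovered reads, p = 0.0163). They differed beyond sampling noise by the threshold used, and here were counted separately.

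At day 4 Akkermansia stayed low in most mice and was a leading genus in a few. Across all day 4 libraries the median was 0.0154%, while 10 of 91 held at least 1% and 7 held at least 10%. Vancomycin gave 5 of the 10 (from 18 libraries) and the mix 2 (from 13). Neomycin (14 libraries), metronidazole (18) and PBS (16) gave 1 each. The 5 of vancomycin include the near-identical intraperitoneal pair, both at 10% or more, which was counted as 1 sample in the tests. Of 12 ampicillin libraries, 0 reached 1%, with a highest value of 0.289%. All 10 were of run ok122, where 55 of 79 day 4 libraries had reads. In run SB1 4 of 12 had reads, with a highest share of 0.602%.

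**Figure D1:**
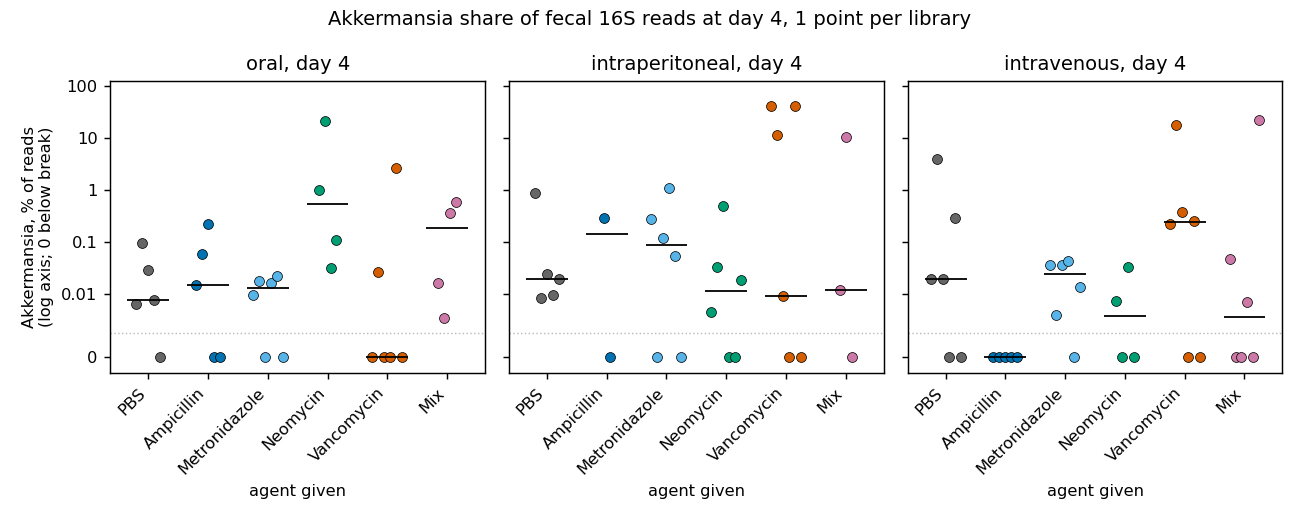
Share of reads assigned to Akkermansia at day 4, in percent on a log axis with 0 set below the dotted break, for each agent and route; each point is 1 library and each line the group median with near-identical libraries counted once. Most points lie under 1%, and the 7 libraries of at least 10% are of neomycin by mouth, of vancomycin in the peritoneum or vein, and of the mix in the peritoneum or vein.

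The PBS mice set the background. In oral PBS the day 4 values were 0.00665%, 0.0992%, 0.0291%, 0.00775% and 0. In intraperitoneal PBS they were 0.875%, 0.00862%, 0.0242%, 0.00964% and 0.0199%. In intravenous PBS they were 0.0195%, 4.06%, 0.0195%, 0, 0.294% and 0. Means were 0.0285% ± 0.0410 (SD, n = 5), 0.187% ± 0.384 (SD, n = 5) and 0.732% ± 1.63 (SD, n = 6). An untreated mouse could therefore hold 4.06% (935 of 23036 reads), and both higher PBS means rested on 1 mouse each.

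All day 4 samples and 95 genera entered a limma fit that set each antibiotic and route against its own route's PBS, on log2(percent + 0.01), adjusted by Benjamini-Hochberg over all genera. For Akkermansia 0 of 15 comparisons passed an adjusted p of 0.05, and 1 had an unadjusted p under 0.05, that of oral neomycin. The two-sided exact permutation test, adjusted over the 15 comparisons, gave 0 past the threshold and 1 with an unadjusted p under 0.05, again oral neomycin. In 8 of the 15 comparisons, oral neomycin and intravenous ampicillin among them, the smallest p this test can give times 15 is over 0.05, so none of these could have passed alone. Falls had little room on this scale. A share of 0% is -6.64, and PBS means were -5.25 by mouth, -4.31 in the peritoneum and -3.86 in the vein. Even a fall to 0 in every sample could hardly pass, so a loss of Akkermansia could not be tested well. The share of genera called in the same comparisons is given beside each result below as the background.

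In oral neomycin the day 4 values were 0.996%, 21.4%, 0.0329% and 0.109%, a mean of 5.64% ± 10.5 (SD, n = 4). The oral PBS mice ranged from 0 to 0.0992%. All 4 neomycin mice had reads and 3 of 4 lay above every oral PBS mouse, while the lowest lay within their range. The log2 difference was 4.45 (SE 1.96, limma adjusted p = 0.0812), and 23.2% of genera were called in this comparison. The exact permutation p was 0.0238, with an adjusted p of 0.357 over the 15 comparisons, where 4 against 5 samples cannot go below 0.00794. Without replicate 2, which held the 21.4%, the difference was 2.71 (limma adjusted p = 0.364), and without replicate 3, the lowest, it was 5.70 (adjusted p = 0.0403).

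Before treatment, too, more oral neomycin than oral PBS libraries had reads, 3 of 6 against 1 of 6, a log2 difference of 1.58 (exact p = 0.182). Depth limits this contrast, since PBS libraries without Akkermansia included those of 318, 457 and 1077 reads. Counted from each mouse's own day 0 value, the neomycin difference at day 4 was 2.80 (limma adjusted p = 0.385). The mouse at 21.4% had 0.248% at day 0 and the mouse at 0.109% had 0.218% (2 of 918 reads). Those at 0.996% and 0.0329% had no reads at day 0, in 662 and 7915 reads.

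By the other routes all neomycin mice held under 1% Akkermansia. In the peritoneum the values were 0.00453%, 0.0330%, 0.505%, 0 (in 70 reads), 0 and 0.0192%, which overlapped those of PBS (log2 difference -0.69, SE 1.77, limma adjusted p = 0.973, with 0% of genera called). In the vein they were 0.00761%, 0, 0.0342% and 0 (-2.05, SE 1.89, adjusted p = 0.809, with 1.05% called). The difference between the oral and the intravenous neomycin effect was 6.50 (SE 2.72, limma interaction contrast, adjusted p = 0.0906, with 12.6% of genera called), and that between the oral and the intraperitoneal effect was 5.14 (SE 2.64, adjusted p = 0.218, with 0% called). For Akkermansia 0 of the 15 contrasts between routes passed by limma, and 1 had an unadjusted p under 0.05. Among all genera those contrasts called between 0% and 12.6%, with 7.37% between oral and intravenous ampicillin.

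**Figure D2:**
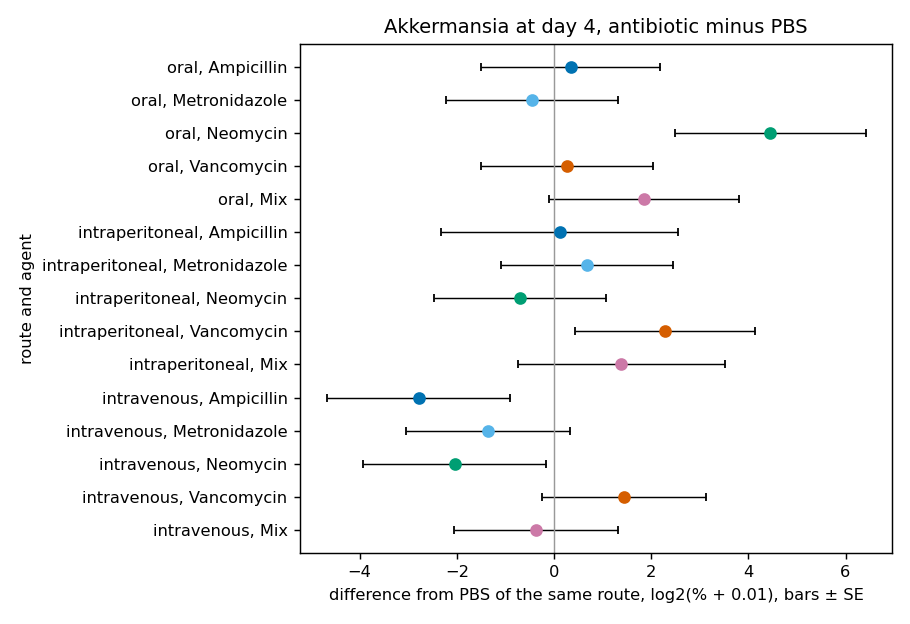
Difference in mean log2(percent + 0.01) of Akkermansia between each antibiotic group and PBS of the same route at day 4; points are limma estimates and bars 1 standard error each way. Oral neomycin lies farthest above 0, at 4.45, and intravenous ampicillin farthest below, at -2.79, and neither passed the adjusted threshold.

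Vancomycin in the peritoneum gave the widest spread of any group. Of its libraries, replicates 1 and 5, the near-identical pair, held 41.1% and 41.7%, replicate 2 held 11.4%, replicate 3 held 0.00954% and replicates 4 and 6 had 0. The mean was 10.6% ± 17.9 (SD, n = 5), 2 of 5 samples lay above every PBS mouse and 2 of 5 below, and the median was 0.00954%. The log2 difference was 2.29 (SE 1.85, limma adjusted p = 0.385), where 25.3% of genera were called. Intraperitoneal vancomycin thus held both the highest Akkermansia shares of the study and mice with no reads at all.

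In the vein the vancomycin values were 0.225%, 17.8%, 0.381%, 0, 0.262% and 0, a mean of 3.10% ± 7.18 (SD, n = 6). The median, 0.243%, was above that of intravenous PBS at 0.0195%, but the groups overlapped from 0 to 4.06% (log2 difference 1.45, SE 1.69, limma adjusted p = 0.485, with 42.1% called). By mouth 4 of 6 mice had 0, and the others 0.0267% and 2.67% (0.26, SE 1.77, adjusted p = 0.892, with 66.3% called). So vancomycin by mouth had the largest share of genera called of any comparison, and Akkermansia was not among them. A fall had little room to be called, since the oral PBS mean was -5.25 on the log2 scale, where 0% is -6.64. The vancomycin effect differed between the oral and the intraperitoneal route by -2.03 (limma adjusted p = 0.743, with 12.6% of genera called) and between the oral and the intravenous route by -1.19 (adjusted p = 0.855, with 9.47% called), neither past the threshold.

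The mix followed the same uneven pattern. In the vein 1 mouse held 22.9% and the other 5 held 0.0473%, 0, 0, 0.00728% and 0, the last in 65 reads. In the peritoneum the values were 0.0119%, 10.5% and 0, the last in 30 reads. By mouth they were 0.0167%, 0.00348%, 0.360% and 0.602%, of which the first 3 rested on 2 reads each. The means were 3.82% ± 9.33 (SD, n = 6), 3.51% ± 6.07 (SD, n = 3) and 0.245% ± 0.289 (SD, n = 4). Log2 differences were -0.38 in the vein (SE 1.69, limma adjusted p = 0.842, with 43.2% called), 1.39 in the peritoneum (SE 2.13, adjusted p = 0.631, with 29.5% called) and 1.85 by mouth (SE 1.96, adjusted p = 0.446, with 36.8% called). A list of genera known as reagent or skin contaminants took 68.3% to 96.0% of reads in 3 of the 4 oral libraries. With this contaminant list left out, the oral difference was 3.80 (limma adjusted p = 0.165). Whether its reads were contamination was not tested.

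Ampicillin libraries of day 4 all held under 1% of reads. In the vein all 5 libraries, counted as 4 samples, had 0, with upper limits of 0.0101% to 0.0829% from 3 reads of each total. Of the 6 intravenous PBS mice, 2 also had 0, so the groups overlapped (log2 difference -2.79, SE 1.89, limma adjusted p = 0.209, with 42.1% called). With 0 in every sample, this is the largest fall from these PBS mice that the scale allows. In the peritoneum the 2 values were 0.289% and 0 (0.11, SE 2.44, adjusted p = 0.973, with 50.5% called). By mouth they were 0.0154%, 0.0595%, 0.225%, 0 and 0 (0.34, SE 1.85, adjusted p = 0.871, with 55.8% called). Without the contaminant list the difference was 0.97 (limma adjusted p = 0.684). The last 0 is of a library with 96.6% of its reads on that list.

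Metronidazole mice held Akkermansia mostly within the range of PBS. By mouth the values ran from 0 to 0.0227% (log2 difference -0.46, SE 1.77, limma adjusted p = 0.998, with 4.21% of genera called). In the vein they ran from 0 to 0.0436% (-1.35, SE 1.69, adjusted p = 0.915, with 2.11% called). In the peritoneum 1 of 6 mice reached 1.12%, above the highest intraperitoneal PBS mouse at 0.875%, with the others between 0 and 0.281% (0.68, SE 1.77, adjusted p = 0.951, with 2.11% called). Few genera of any kind were called with this antibiotic.

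The libraries in which Akkermansia led were built of different neighbours. In intraperitoneal vancomycin replicate 1 it was the most abundant genus at 41.1% (16559 of 40311 reads, exact 95% interval 40.6 to 41.6), followed by UBA7173 at 17.5%, Parabacteroides_B_862066 at 11.1% and unclassified Muribaculaceae at 6.77%. Replicate 5 held 41.7% (10826 of 25972 reads, interval 41.1 to 42.3) beside the same leading genera. In replicate 2 it ranked 3 at 11.4% behind UBA7173 at 28.0% and unclassified Muribaculaceae at 18.1%. UBA7173 and Duncaniella, like the unclassified Muribaculaceae, belong to the Muribaculaceae, a family of Bacteroidota common in the mouse gut.

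In intravenous vancomycin replicate 2 Akkermansia ranked 2 at 17.8% (1779 of 10020 reads, exact 95% interval 17.0 to 18.5), beside Duncaniella at 17.9% and UBA7173 at 17.7%. In intravenous mix replicate 6 it ranked 2 at 22.9% (6395 of 27981 reads, interval 22.4 to 23.4), beside Duncaniella at 23.3% and Prevotella at 21.8%. In oral neomycin replicate 2 it ranked 2 at 21.4% (6216 of 29006 reads, interval 21.0 to 21.9) behind CAG-485, a genus of the Muribaculaceae, at 35.5%. In intraperitoneal mix replicate 2 it ranked 4 at 10.5%, after CAG-485 at 21.3%, Duncaniella and Prevotella at 11.9%. In these 7 libraries the other leading genera were all Bacteroidota.

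Oral vancomycin replicate 5 differed from these. There Akkermansia ranked 5 at 2.67% (515 of 19287 reads, exact 95% interval 2.45 to 2.91) in a library led by Escherichia_710834 at 55.2% and Borkfalkia at 31.9%. The PBS mouse at 4.06% and the metronidazole mouse at 1.12% had Akkermansia at ranks 8 and 12, behind CAG-485 at 15.9% and 16.7%.

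**Figure D3:**
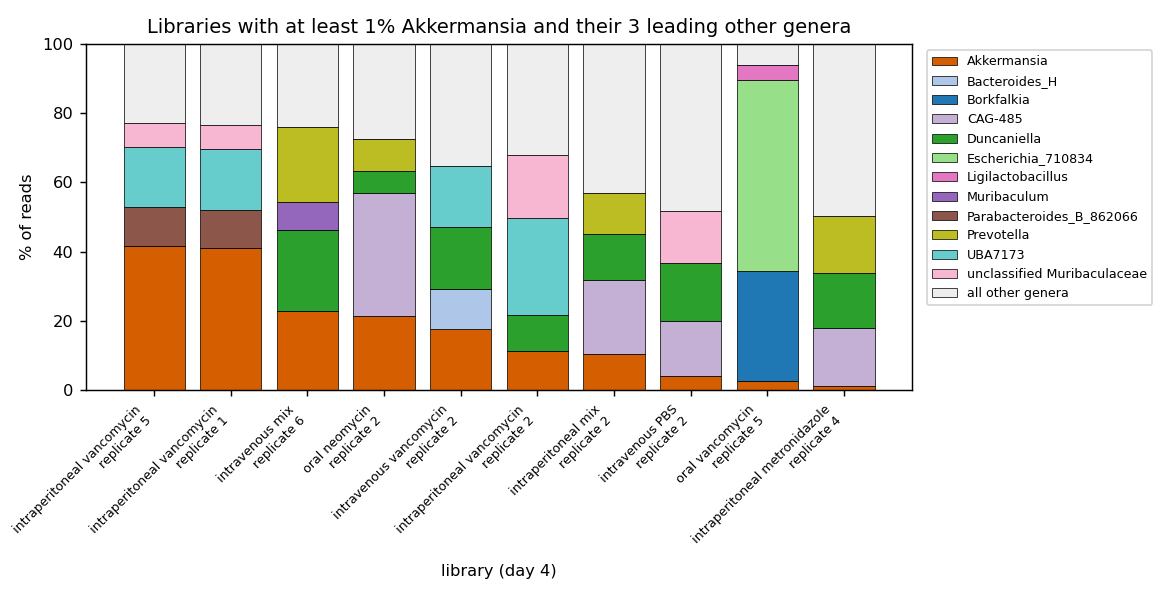
Makeup of the 10 day 4 libraries with at least 1% Akkermansia, in percent of reads; each bar is 1 library, with Akkermansia at the base, its 3 leading other genera above and all remaining genera in grey. Akkermansia reaches 41.7% in intraperitoneal vancomycin, Muribaculaceae and Prevotella fill much of the other bars, and Escherichia_710834 fills 55.2% of oral vancomycin replicate 5.

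Genera known as reagent or skin contaminants (Burkholderia, Ralstonia, Pseudomonas and 7 others) summed to at most 0.176% in these 10 libraries. They exceeded 10% in 5 day 4 libraries, where Akkermansia was at most 0.360%. These 5 were of oral ampicillin and the oral mix, and Burkholderia was the leading genus in each. Whether these reads were contamination was not tested. With those genera left out of the total, oral ampicillin replicate 3 would hold 2.04% Akkermansia in place of 0.225%, since the contaminant list took 89.0% of its reads, and oral mix replicate 2b would hold 1.14% in place of 0.360%, with 68.3% on the list. Oral mix replicate 1 would hold 0.253% in place of 0.0167% (93.4% on the list) and replicate 2a 0.0869% in place of 0.00348% (96.0%). Each of these also rests on 2 Akkermansia reads. Oral ampicillin replicate 5 had 0 Akkermansia in 23364 reads, but 96.6% of these were on the list, so its 0 rests on few other reads.

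Within single mice several large gains started from few or no reads, in PBS as well as with antibiotics. The mouse of intravenous mix replicate 6 went from 0.0232% (8 reads of 34537) to 22.9%, a ratio of 986.7. The oral neomycin mouse went from 0.248% (16 of 6455 reads) to 21.4%, a ratio of 86.5. The mouse of intraperitoneal mix replicate 2 went from 0.167% (18 of 10761 reads) to 10.5%, a ratio of 62.9. The mouse of intravenous PBS replicate 2 went from 0.0215% (3 of 13948 reads) to 4.06% with no antibiotic, a ratio of 188.7 with an exact 95% counting interval of 64.6 to 915.0. Of 2 mice with none at day 0, intraperitoneal vancomycin replicate 1 was at least 849.8-fold higher at day 4 and intravenous vancomycin replicate 2 at least 796.4-fold higher, both against 3 reads of the day 0 total. The first bound depends on which mouse the library came from, since replicates 1 and 5 were near-identical at day 4, and the value of replicate 5 against its own day 0 library (0 of 230 reads) is at least 32.0-fold. Intraperitoneal vancomycin replicate 2 had 2 of 357 reads at day 0, too few to set a level.

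Other mice of the same groups went the opposite way. Intraperitoneal vancomycin replicate 4 had the highest share of any mouse at day 0, 1.91% (288 of 15068 reads), and 0 of 23005 reads at day 4, an upper limit of 0.0130%. An oral vancomycin mouse, replicate 6, had 0.619% at day 0 and 0 of 2974 reads at day 4. So the vancomycin mouse with the most Akkermansia at day 0 had no reads at day 4.

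**Figure D4:**
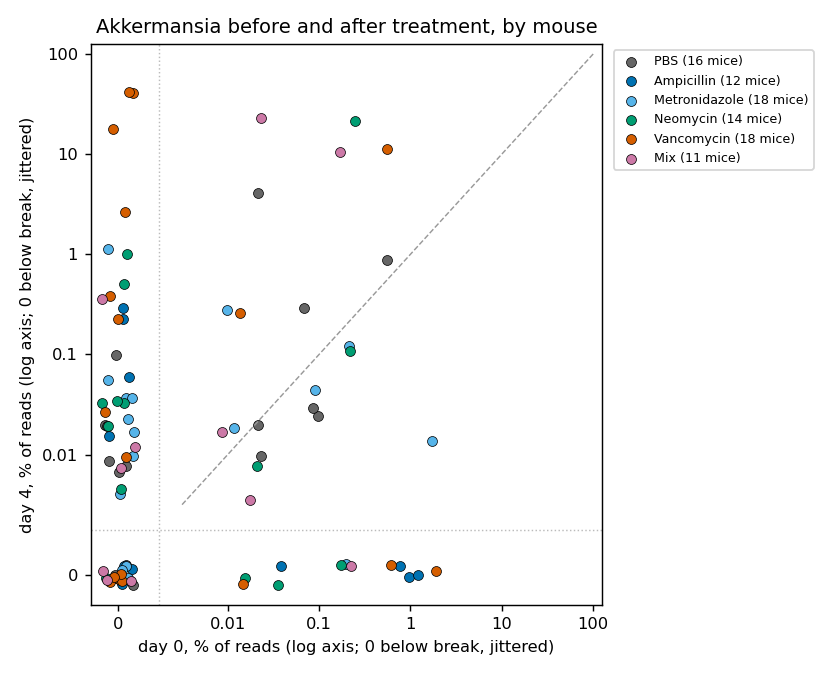
Akkermansia share of each of 89 mice at day 0 (horizontal) and day 4 (vertical), in percent of reads on log axes with 0 set below the dotted breaks and spread for legibility; colours are the agents and the dashed line marks equal shares. Points of at least 10% at day 4 lie at day 0 values from 0 to 0.560%, and the mouse with the most at day 0, 1.91%, lies at 0 on day 4.

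The change within mice was compared with that in PBS of the same route by a two-sided exact permutation test on log2(percent + 0.01), adjusted over the 15 comparisons. Of these, 0 passed an adjusted p of 0.05 and 1 had an unadjusted p under 0.05, that of intravenous ampicillin. Its mice had 0.0379%, 0, 0.767%, 0.954% and 1.22% at day 0, and all had 0 at day 4. The mean change was -3.91, against 1.74 in PBS, a difference of -5.65 (n = 4 and 6, exact p = 0.0190, adjusted p = 0.286), and 3 of 4 samples lay below every PBS mouse. The smallest exact p with 4 against 6 samples is 0.0048, which could not pass alone after adjustment. The day 0 values of this group were the highest group mean of day 0, and they enter the change.

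The other changes did not pass, nor did any have an unadjusted p under 0.05. Oral neomycin differed from PBS by 2.80 (exact p = 0.175, adjusted p = 0.612), intravenous vancomycin by 2.29 (p = 0.286, adjusted p = 0.612) and intraperitoneal vancomycin by 1.80 (p = 0.619, adjusted p = 0.937). Intravenous metronidazole differed by -2.83 (exact p = 0.177, adjusted p = 0.612) and intraperitoneal metronidazole by 1.96 (p = 0.212, adjusted p = 0.612).

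At full depth, reads at day 4 alone were the most frequent outcome in antibiotic mice, but not at equal depth. Of 71 antibiotic samples with both days, 14 had reads on both days, 29 at day 4 alone, 11 at day 0 alone and 17 on neither. Of 16 PBS samples, 7 had reads on both days, 6 at day 4 alone, 0 at day 0 alone and 3 on neither. Thinned to 1000 reads, 49 antibiotic mice gave 4, 10, 7 and 28 in the same order and 13 PBS mice 2, 4, 0 and 7. Reads on neither day were then the most frequent outcome in both. The difference in loss between antibiotic and PBS mice was not tested.

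Presence at day 0 was not shown to foretell a high share at day 4. Of 25 antibiotic samples with reads at day 0, 4 (16%) held at least 1% at day 4, and of 46 without reads, 4 (8.70%) did. The difference was 7.30 percentage points (two-sided permutation of presence within antibiotic-and-route groups, 100000 resamples, p = 0.446). Its mean over those permutations, which keep differences between groups, was 1.13 points, and the p-value is counted from that mean. With the contaminant list left out, 4 of 25 (16%) and 6 of 46 (13.0%) did, a difference of 2.96 points (permutation p = 1). The 6 include oral mix replicate 2b, at 1.14% from 2 reads. At a day 4 level of 10% the shares were 4 of 25 (16%) and 2 of 46 (4.35%, p = 0.164, same permutation test). At 0.1% they were 8 of 25 (32%) and 11 of 46 (23.9%, permutation p = 0.317). The mean of log2(percent + 0.01) at day 4 was -3.96 with and -4.39 without reads at day 0 (permutation p = 0.507). With 8 samples at 1% or more the test has little reach, and a difference of this size is not shown to be absent.

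A higher bar for presence, at least 0.1% at day 0, gave 3 of 13 (23.1%) against 5 of 58 (8.62%, permutation p = 0.637). The difference was 14.5 points, but its mean over permutations within groups was already 7.85. By antibiotic, the mix had 2 of 5 against 0 of 6 (permutation p = 0.132), neomycin 1 of 6 against 0 of 8, vancomycin 1 of 5 against 3 of 12, metronidazole 0 of 6 against 1 of 12 and ampicillin 0 of 3 against 0 of 8. In the mix and neomycin, all 3 mice at 1% or more had reads at day 0, while in vancomycin and metronidazole 4 of 5 samples at 1% or more had none. PBS mice gave 1 of 7 against 0 of 9 (permutation p = 0.499).

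Absence at day 0 was often a matter of few reads. With each library counted, the near-identical intraperitoneal vancomycin pair as 2, there were 47 antibiotic mice with no Akkermansia reads at day 0. Of these, 24 had an upper limit of at most 0.1%, from 4018 to 28691 reads, and 23 had a higher limit, from 2 to 2096 reads. Of the 24, 14 had reads at day 4, and 2 held at least 10% (intraperitoneal vancomycin replicate 1 and intravenous vancomycin replicate 2). Of the 23, 16 had reads at day 4 and 3 held at least 1%. The first of these 2 counts only if its day 4 library is not that of replicate 5, whose day 0 limit was 1.30%. With libraries under 1000 reads left out of both days, 3 of 20 (15%) present and 3 of 29 (10.3%) absent samples held at least 1% at day 4 (permutation p = 1).

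Other genera that can live in mucus or use mucin were set beside Akkermansia, as a list of 11 genera found in the table, 9 of which were tested. In oral neomycin, where 23.2% of all genera were called, 3 of 9 rose by limma, namely Phocaeicola_A_858004, Bacteroides_H and Parabacteroides_B_862066, and 0 fell, and the list's median log2 difference was -0.03 beside -1.02 over all 95 genera. In intraperitoneal vancomycin 1 of 9 rose, Parabacteroides_B_862066, and 0 fell (median -0.78 beside -1.01), with 25.3% of all genera called. In intravenous vancomycin Bacteroides_H and Parabacteroides_B_862066 rose and Duncaniella and Muribaculum fell, 4 of 9 beside 42.1% of all genera (median 0.11 beside -1.14). In intravenous ampicillin, where Akkermansia had 0 in every library, 3 of 9 rose and 1 fell, again beside 42.1%. In the other comparisons with calls more members fell than rose. Of 9, 1 rose and 4 fell in oral vancomycin (66.3% of all genera called) and in intraperitoneal ampicillin (50.5%), and 1 rose and 3 fell in oral ampicillin (55.8%) and in the intravenous mix (43.2%). In the oral mix 0 rose and 3 fell (36.8%), and in the intraperitoneal mix 0 rose and 2 fell (29.5%). With metronidazole 0 of 9 passed in either direction by any route. Parabacteroides_B_862066 rose in 5 of 15 comparisons, those of oral neomycin, intraperitoneal vancomycin, and intravenous ampicillin, vancomycin and mix. It averaged 19.0% ± 36.3 (SD, n = 5) in intraperitoneal vancomycin, against 0.0420% ± 0.0411 (SD, n = 5) in PBS (log2 difference 5.36, SE 1.45, limma adjusted p = 0.0038). Without replicate 3, which held 83.4% of it and 0.00954% Akkermansia, that mean was 2.92% ± 5.47 (SD, n = 4). It averaged 2.79% ± 2.57 (SD, n = 4) in oral neomycin, against 0.0453% ± 0.0218 (SD, n = 5) in PBS (5.37, SE 1.54, adjusted p = 0.0079).

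The 3 members of that list with the highest day 0 means were Duncaniella at 9.55% ± 3.57 (SD, n = 107), Muribaculum at 4.40% ± 1.89 and Alistipes_A_871400 at 0.897% ± 0.750. Duncaniella in intraperitoneal vancomycin was 8.55% ± 8.33 (SD, n = 5), with a log2 difference from PBS of -2.07 (SE 1.51, limma adjusted p = 0.325), and in oral vancomycin it fell by 7.41 (SE 1.45, adjusted p = 9.7e-06). Muribaculum fell by 6.94 in intravenous vancomycin (SE 1.26, limma adjusted p = 1.2e-05). Alistipes_A_871400 fell by 6.81 in intravenous ampicillin (SE 1.21, limma adjusted p = 2.1e-05).

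The genera whose day 4 group means were most like those of Akkermansia were Merdisoma (Pearson r = 0.48 over the means of 18 groups), Stercorousia (0.48) and Parabacteroides_B_862066 (0.46), beside a median of -0.12 over the other 94 genera. Across the 89 samples the same values were 0.25, 0.38 and 0.25. At the other end, the lowest of the 94 was Avispirillum, at -0.45 over group means and -0.042 across samples. The highest r of so many genera over 18 means can be large without a relation, and this was not tested. These are descriptions over samples that share libraries and a fixed total.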

How the data were processed

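The 16S V4 region of stool DNA was amplified with 30 to 35 PCR cycles and sequenced on 2 MiSeq runs, per the labels' protocols. How reads were filtered, clustered and named is not given in the sources used here. As deposited, the authors' composition table holds 488 taxa in 198 libraries, and its values are a signal that sums to 100000 in each library. The deposited sample sheets of the 2 runs, whose names are of no unit, gave each library's antibiotic, route, day and replicate. Empty cells (11.6%) were read as 0.

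In 100% of libraries all values were whole multiples of 1 step (within 0.02 reads or a 1e-05 share of the value), which gave reads. The smallest value was 2 reads in 183 of 198 libraries, so depth is a lower limit if counts share a factor. No count model was fitted.

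Near-identical libraries of a group (chi-square p of at least 0.05, among pairs of at least 500 reads each, 391 pairs) were averaged. Akkermansia was tested with limma 3.58.1 (R 4.3.3; lmFit, eBayes with trend) on log2(percent + 0.01), which understates changes of rare genera, over genera in at least 20% of 89 day 4 samples with 1 mean per group. Exact permutation tests and permutations of presence were run in Python 3.11.15, and the exact test was checked against that of scipy 1.17.1. Scripts were tested on simulated data. Alternatives were the pseudocount, filter, depth, run, near-identical libraries, contaminant list, groups fitted, own baseline and each sample left out. The members, lists and tests were chosen with earlier results of these data known. The genera named are all Verrucomicrobiota, the 3 most abundant of the mucus list at day 0 and those of that list past the threshold where counted. Also named are the 3 most like Akkermansia, the least like it and the leading genera of libraries at 1% or more. The division at 5000 reads and the limit of 0.1% for absence were chosen after values were seen.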

Additional observations from a re-analysis of the deposited data

Results flagged for a closer look

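Of 34 groups of 4 to 10 samples, 23 had a single highest sample far above the rest for Akkermansia (Dixon's criterion), 10 at day 4 and 13 at day 0. Chance flags about 1 in 20 groups whose values spread like a bell curve, and these shares, many of them 0, do not.

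At day 4 the samples that stood apart by vancomycin were the near-identical intraperitoneal pair of replicates 1 and 5 (mean 41.4%), intravenous replicate 2 (17.8%) and oral replicate 5 (2.67%). For the mix it was intravenous replicate 6 (22.9%). For neomycin they were oral replicate 2 (21.4%) and intraperitoneal replicate 3 (0.505%). For metronidazole it was intraperitoneal replicate 4 (1.12%), and for ampicillin oral replicate 3 (0.225%). In PBS they were intravenous replicate 2 (4.06%) and intraperitoneal replicate 1 (0.875%).

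At day 0, where replicate numbers are those of the day 0 samples, vancomycin had intraperitoneal replicate 4 (1.91%), oral replicate 6 (0.619%) and intravenous replicate 4 (0.0135%). Metronidazole had intravenous replicate 6 (1.71%), intraperitoneal replicate 3 (0.214%) and oral replicate 2 (0.0118%). The mix had oral replicate 3 (0.162%) and intravenous replicate 6 (0.0232%), ampicillin had intraperitoneal replicate 6 (0.141%) and neomycin had intraperitoneal replicate 5 (0.175%). PBS had intraperitoneal replicate 1 (0.552%), oral replicate 4 (0.0854%) and intravenous replicate 5 (0.0684%).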

How the results depend on the processing

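Calls for Akkermansia changed in few settings. With only the 2 groups compared in the limma fit, 1 of 15 day 4 comparisons passed (oral neomycin, log2 difference 4.45, adjusted p = 0.0384; over the alternatives run on all its samples its adjusted p lay between 0.0384 and 0.385). Leaving out each sample in turn gave 0 to 1 comparisons and 0 to 1 contrasts between routes past the threshold, in both cases 1 without oral neomycin replicate 3. The counts of 0 by exact test at day 4, at day 0 and for the change were 0 in every alternative run, which says nothing of stability for the 8 of 15 day 4 comparisons and 8 of 15 changes too small to pass alone. Presence at day 0 differed by 3.80 to 9.33 percentage points with each sample left out and by 2.96 with the contaminant list left out. The lowest, 3.80, came on leaving out any 1 of the 4 samples with reads at day 0 that held at least 1% at day 4. Thinned to 1000 reads, 2 of 11 present and 4 of 38 absent samples held at least 1%. That difference of 7.66 points was below its mean of 11.5 over permutations within groups. The sign reversed in metronidazole alone (-8.33) and vancomycin alone (-5).

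Signs of small differences turned, and the cause was not tested. At day 4 these were, from each mouse's own baseline, oral metronidazole (0.0029), oral vancomycin (-0.30), intraperitoneal neomycin (0.57) and intravenous mix (0.30). With a pseudocount of 0.001% they were oral vancomycin (-0.83) and intraperitoneal ampicillin (-1.01). The intravenous mix turned with a pseudocount of 0.1% (0.11) and without libraries under 1000 reads (0.11). For the change within mice, thinning turned oral ampicillin (-1.15), oral metronidazole (-1.15), oral mix (-2.88) and intraperitoneal neomycin (-0.34). Leaving out libraries under 1000 reads turned oral metronidazole (-0.16) and oral mix (-0.98). A pseudocount of 0.1% turned oral metronidazole (-0.012) and oral vancomycin (0.21), and 0.001% oral metronidazole (-0.12) and intraperitoneal mix (-0.42). Run ok122 alone turned the intravenous mix (-0.78).

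With each sample left out in turn, day 4 differences ranged from -0.36 to 0.86 (oral ampicillin), -0.81 to 0.053 (oral metronidazole), -1.02 to 0.77 (oral vancomycin), -2.34 to 2.56 (intraperitoneal ampicillin), -0.083 to 1.71 (intraperitoneal metronidazole), -1.50 to 0.34 (intraperitoneal neomycin), -1.77 to 3.25 (intraperitoneal mix), -2.12 to 0.80 (intravenous mix) and 2.71 to 5.70 (oral neomycin). They kept their sign but moved from 0.44 (without the near-identical pair) to 3.45 in intraperitoneal vancomycin, from 0.14 (without replicate 2) to 2.62 in intravenous vancomycin and from 0.96 (without replicate 3) to 2.79 in the oral mix. Without intravenous PBS replicate 2, intravenous ampicillin was at -1.61, metronidazole at -0.18 and neomycin at -0.87, and their lowest values were -3.34, -1.91 and -2.60. Changes within mice ranged from -0.51 to 0.68 (oral metronidazole), -1.82 to 0.98 (oral vancomycin), -1.01 to 2.11 (oral mix), -0.15 to 4.76 (intraperitoneal ampicillin), -0.42 to 1.56 (intraperitoneal neomycin), -0.72 to 4.18 (intraperitoneal vancomycin), -1.85 to 3.36 (intraperitoneal mix) and -1.54 to 1.36 (intravenous mix). Replicate numbers only name mice within a group, so mice of different groups were not paired with each other. Each mouse was paired with itself across days instead.

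Depth limits what absence means: 24 of 107 day 0 libraries held under 1000 reads, where an upper limit of 3 reads is at least 0.3%.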
